A study of Mus musculus with 30 samples.

Results

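The genes of the major histocompatibility complex (MHC) that serve antigen presentation were followed in bulk RNA from 30 mouse hearts. The members are 52 of the 55487 rows of the count table. They are the genes whose GENCODE mouse symbol starts with H2-, together with B2m, Tap1, Tap2, Tapbp, Cd74, Ciita and Nlrc5. By role they comprise 2 classical class I heavy chains (H2-K1 and H2-D1), 1 light chain (B2m), 3 class I loading genes (Tap1, Tap2 and Tapbp) and 30 non-classical class I genes or pseudogenes. On the class II side there are 5 classical chain genes, 1 invariant chain (Cd74) and 5 peptide editor genes. The remaining members are 2 transactivators (Nlrc5 and Ciita) and 3 other genes of the region. Chromosome 17 holds 48 of them, and B2m, Cd74, Ciita and Nlrc5 lie on chromosomes 2, 18, 16 and 8.

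As background, class I molecules display peptides made in the cytosol on nearly all nucleated cells, where CD8 T cells read them. The proteasome cuts the peptides, Tap1 and Tap2 pump them into the endoplasmic reticulum, tapasin (Tapbp) helps to load them, and the heavy chain needs the light chain B2m to reach the surface. Class II molecules, built of an alpha chain such as H2-Aa and a beta chain such as H2-Ab1, display peptides of engulfed proteins to CD4 T cells. They are made mainly by macrophages, dendritic cells and B cells, are escorted by the invariant chain Cd74 and are edited by H2-DM. Nlrc5 is the transactivator of class I genes and Ciita that of class II genes, and interferon gamma raises both. In the healthy heart most class II molecules sit on resident macrophages and dendritic cells between the muscle cells.

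The study, per its design text, lowered or added the fatty acid transport enzyme CPT1a in heart muscle and applied pressure overload by narrowing the aorta with a clip (transverse aortic constriction, TAC). In the floxed cohort, mice labelled CPT1a floxed had sham surgery (FF_sham) or TAC (FF_TAC), and mice labelled cardiac specific CPT1a knockout had sham surgery (KO_sham) or TAC (KO_TAC), with 4 hearts in each group. In the AAV9 cohort, C57Bl/6 mice received PBS and sham surgery (PBS_sham) or TAC (PBS_TAC), with 3 hearts each, or the vector AAV9.Cpt1a, in which a cardiac troponin T promoter drives Cpt1a, and sham surgery (AAV_sham) or TAC (AAV_TAC), with 4 hearts each. Hearts of all 8 groups were taken 8 weeks after surgery, and age, sex, the Cre driver and the background strain of the floxed mice are not given in the sources used here. Clips measured 0.016 or 0.018 inch, without a record of which mouse had which.

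Total counts ran from 14839758 to 22070373 per library. Cpt1a itself did not follow the labels in 3 libraries: the library labelled KO_sham 2 had 46.7 CPM (the unit in which each count is set against its library's TMM-scaled total), inside the FF_sham range of 38.7 to 53.7, and those labelled FF_TAC 2 and 3 showed 20.7 and 16.5 CPM, against 21.1 to 24.4 CPM in the other KO_sham libraries and 11.3 to 19.9 CPM in KO_TAC. The same 3 libraries and the KO_TAC libraries, 7 in all, held 1.396 to 51.1 CPM of summed haemoglobin transcripts (without TMM scaling), while no other library had less than 293.9 CPM. Early response genes were also highest in those 7 libraries, with a mean of 6.94 to 8.60 log2 CPM against at most 5.89 elsewhere. The library PBS_sham 3 stands apart as well: its 5 heart muscle markers summed to 17150 CPM, against 43590 and 53830 CPM in the other PBS_sham libraries, and its TMM factor was 1.53. Directions drawn from KO_sham and FF_TAC rest on labels that Cpt1a contradicts in 3 of their 8 libraries, and the counts of called members are also given without those 3 libraries where that changes them.

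The promoter windows of 5 members are shown first, to set the classical heavy chains, the light chain and class II chains side by side near their start sites. Each window runs from 250 bases before to 50 bases after the start site that RefSeq gives in build GRCm38.p6, 5′ to 3′ on the gene's strand. Capitals mark matches to 5 motifs on either strand: CCAAT (the Y box, bound by NF-Y), AGCAAC (a core of the X box, bound by RFX), GGGGAT followed by any letter and CCC (a kappaB site), GAAA, any 2 letters and GAAA again (the core of an interferon-stimulated response element) and TGACGC (a core of site alpha, bound by CREB-type factors). No matches overlap within these windows.
H2-K1, chr17:34000284-34000583, minus strand: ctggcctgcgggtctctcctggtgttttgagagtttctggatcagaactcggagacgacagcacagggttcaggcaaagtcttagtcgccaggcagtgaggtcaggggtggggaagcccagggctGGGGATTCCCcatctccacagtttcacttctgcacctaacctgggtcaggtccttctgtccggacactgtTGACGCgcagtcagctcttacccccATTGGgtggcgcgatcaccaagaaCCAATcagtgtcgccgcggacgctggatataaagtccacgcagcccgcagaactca
H2-D1, chr17:35262844-35263143, plus strand: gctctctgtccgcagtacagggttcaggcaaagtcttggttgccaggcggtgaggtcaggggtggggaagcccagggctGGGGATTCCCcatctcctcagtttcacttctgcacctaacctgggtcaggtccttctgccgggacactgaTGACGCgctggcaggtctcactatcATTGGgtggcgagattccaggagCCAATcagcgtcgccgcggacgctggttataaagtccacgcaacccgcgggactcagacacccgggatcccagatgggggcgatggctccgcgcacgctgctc
B2m, chr2:122147437-122147736, plus strand: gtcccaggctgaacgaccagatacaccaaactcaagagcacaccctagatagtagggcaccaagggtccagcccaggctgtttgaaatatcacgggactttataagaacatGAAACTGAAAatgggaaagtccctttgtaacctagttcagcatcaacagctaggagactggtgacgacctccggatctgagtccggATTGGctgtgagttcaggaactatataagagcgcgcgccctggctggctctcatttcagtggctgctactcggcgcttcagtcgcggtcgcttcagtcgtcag
H2-Aa, chr17:34287774-34288073, minus strand: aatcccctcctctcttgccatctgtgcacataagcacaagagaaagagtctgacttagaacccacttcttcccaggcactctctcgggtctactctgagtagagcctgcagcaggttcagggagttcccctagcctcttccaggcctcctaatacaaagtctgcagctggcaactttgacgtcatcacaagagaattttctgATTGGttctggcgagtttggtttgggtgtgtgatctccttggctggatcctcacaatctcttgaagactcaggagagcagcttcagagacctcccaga
H2-Eb1, chr17:34305617-34305916, plus strand: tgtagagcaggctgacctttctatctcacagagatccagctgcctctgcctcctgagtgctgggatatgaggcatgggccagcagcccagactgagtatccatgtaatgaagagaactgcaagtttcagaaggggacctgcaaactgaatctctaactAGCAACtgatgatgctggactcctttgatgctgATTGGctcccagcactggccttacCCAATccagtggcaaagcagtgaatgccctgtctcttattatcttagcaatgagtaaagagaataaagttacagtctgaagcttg

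RefSeq windows were found for 35 of the 52 members (38 windows, of which H2-K1 has 2 that overlap). CCAAT was in 32 of those 35 genes, against 37.4% of all 32851 promoter windows of this length. The kappaB letters were in 4 genes, H2-K1, H2-D1, H2-Q6 and H2-Q7, against 0.262% of all windows. In H2-K1 the match begins 125 bases before the start site and in H2-D1 171 bases before it, and in both TGACGC and 2 CCAAT matches follow it. TGACGC was in 4 member genes (7.4% of all windows), AGCAAC in 7 (14.8%) and the spaced pair of GAAA in 3, which are B2m, H2-T22 and H2-T23 (3.44%). Interferon response elements with other letters or spacing were not searched for, so a window without this pair may still hold one. Members of the class I family descend from one another, so their windows are not independent, and a match is a description of letters, not of a bound site.

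**Figure D1:**
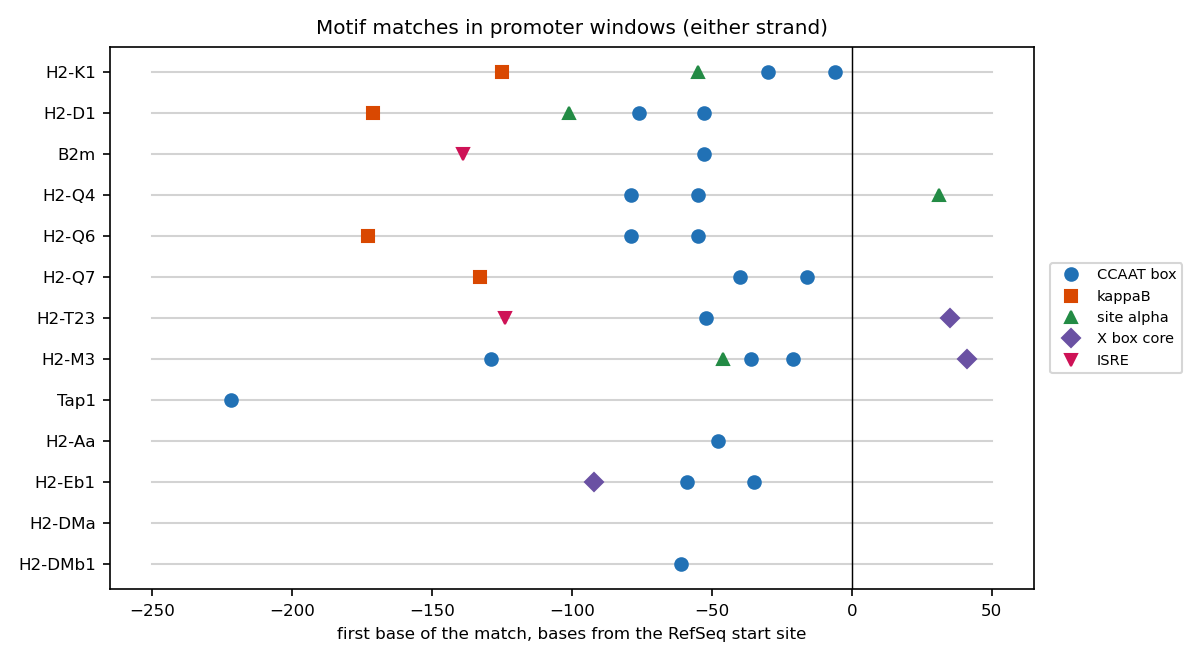
Positions of the motif matches in the promoter windows of 13 members; the horizontal axis is the distance of the first base of a match from the RefSeq start site in bases, and each symbol is 1 motif. H2-K1 and H2-D1 have the kappaB, site alpha and CCAAT matches in the same order, while H2-Aa has a single CCAAT match, 48 bases before its start.

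Of the 52 members, 9 had no count in any library and 7 had 1 to 8 counts over the 30 libraries. A further 8 had more but too few to be tested in either cohort, which left 28 tested among the floxed and knockout hearts and 26 in the AAV9 cohort. The 9 without a count are H2-M1, H2-M10.1, H2-M10.2, H2-M10.4, H2-M10.5, H2-M10.5-ps1, H2-M10.6, H2-Pa and H2-Q3. H2-Ea-ps, the class II alpha gene that C57BL/6 mice carry in a disabled form, had 1 count in all 30 libraries, in KO_TAC 2. Because a tested gene must be high in some group, counts over tested members say nothing of the members below that filter.

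Per kilobase of exon, and averaged over the 8 group means, the light chain B2m had the highest level at 296.8 CPM per kb. The heavy chains H2-D1 and H2-K1 followed with 128.5 and 93.6 CPM per kb, and the invariant chain Cd74 with 78.4. The class II chains H2-Eb1, H2-Ab1 and H2-Aa stood at 26.3, 17.8 and 14.2 CPM per kb, close to the non-classical class I genes H2-Q4 (25.03), H2-Q6 (23.6) and H2-T23 (13.9). The loading genes Tapbp, Tap2 and Tap1 had 20.6, 10.0 and 3.76 CPM per kb, and the transactivators Nlrc5 and Ciita 0.933 and 0.266. Class I and light chain RNA was thus the most abundant of the family per length in these hearts, and the transactivators were the scarcest of the members in this paragraph.

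**Figure D2:**
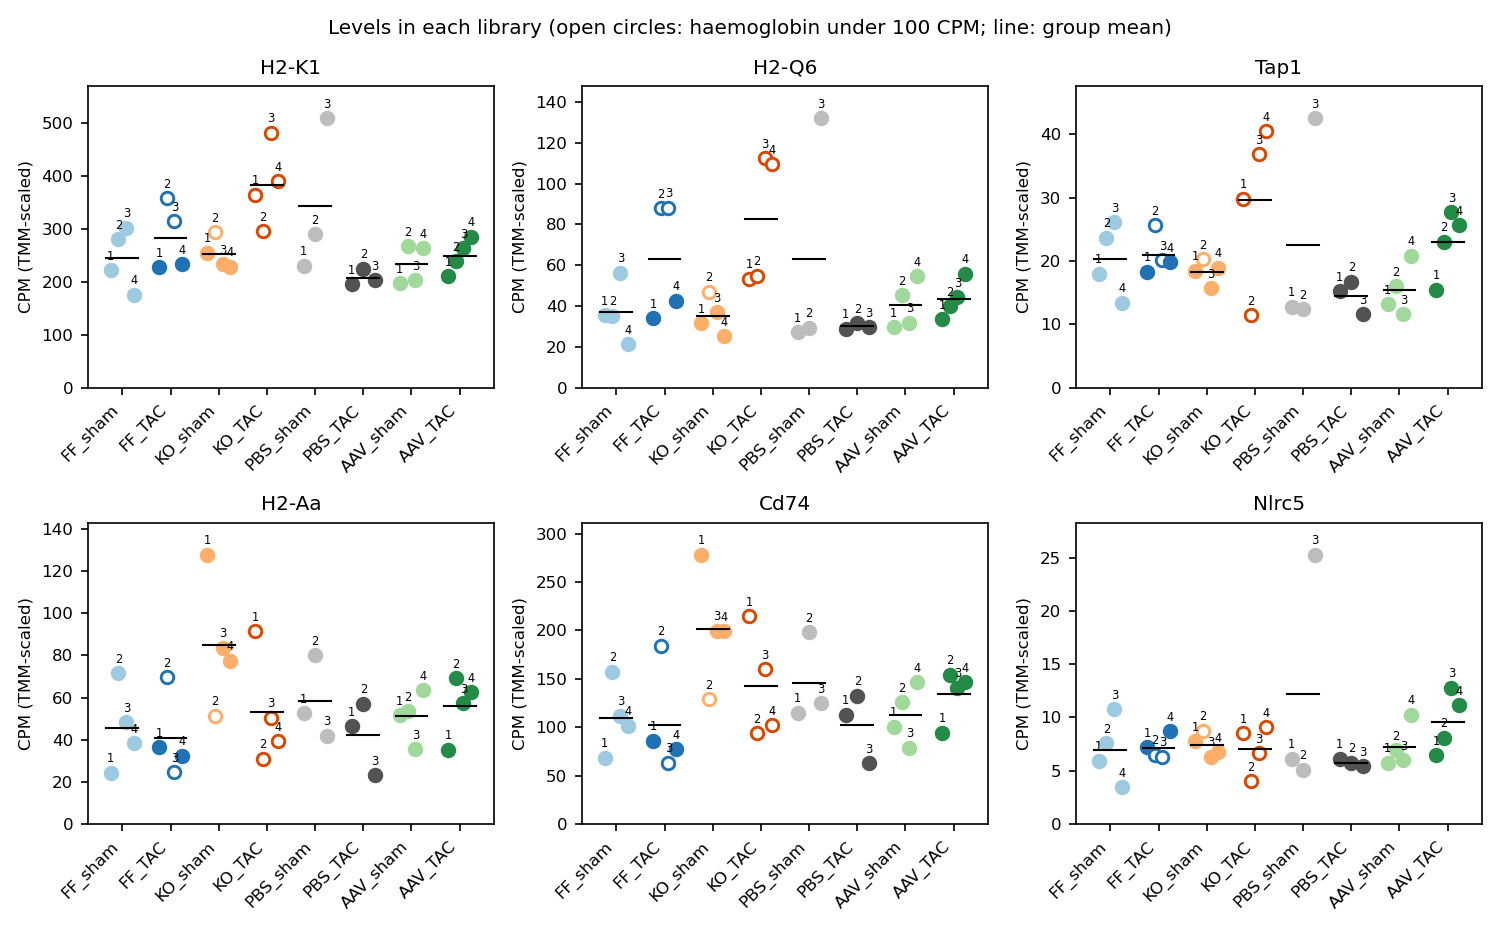
Levels of 6 members in every library, in TMM-scaled CPM; each circle is 1 library with its replicate number, lines are group means, and open circles are the 7 libraries with haemoglobin transcripts under 100 CPM. H2-K1 and H2-Q6 are higher in the 4 KO_TAC libraries than in the 4 KO_sham libraries, H2-Aa and Cd74 have their highest values in KO_sham, and PBS_sham 3 is high for H2-K1, H2-Q6, Tap1 and Nlrc5.

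Part of the class I genes were higher in the knockout hearts after TAC, and these calls were lost with a haemoglobin term in the model. Between KO_TAC and KO_sham 10 of the 28 tested members were called (edgeR's quasi-likelihood test, Benjamini-Hochberg adjusted p under 0.05 over all genes), 9 of them higher and 1 lower. Over all 15596 genes tested, 25.8% were called in this comparison, 14.3% higher and 11.5% lower. At an unadjusted p under 0.05 there were 15 members, where 40.6% of all genes reached that level. All 10 called are class I, light chain or loading genes, and 15 of the 17 tested class I and loading genes had a higher mean in KO_TAC, with a median log2 fold change of 0.47 against 0.02 over all genes. P-values here measure the spread between libraries, which the labels describe as separate hearts.

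H2-K1 (ENSMUSG00000061232, chr17:33996017-34000347), a classical heavy chain, had 255.2, 293.5, 233.5 and 228.5 CPM in KO_sham and 364.8, 296.4, 482.7 and 390.1 CPM in KO_TAC. Every KO_TAC library was above every KO_sham library, with KO_TAC 2 close to the library labelled KO_sham 2. The means were 383.5 ± 77.1 and 252.7 ± 29.6 CPM (SD, n = 4 each), a log2 fold change of 0.64 (SE 0.193, adjusted p 0.0273). H2-D1 (ENSMUSG00000073411, chr17:35262730-35267499), the other classical heavy chain, had 315.1, 358.0, 272.2 and 269.7 CPM in KO_sham and 425.7, 392.3, 565.2 and 449.9 CPM in KO_TAC. The 2 sets of libraries did not overlap, and the log2 fold change was 0.63 (SE 0.171, adjusted p 0.0174).

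B2m (ENSMUSG00000060802, chr2:122147686-122153083), the light chain shared by class I molecules, had 278.2, 246.6, 247.0 and 225.3 CPM in KO_sham and 276.6, 314.0, 405.3 and 350.2 CPM in KO_TAC. The groups overlapped by a small margin, since KO_TAC 1 lay just below KO_sham 1, and the log2 fold change was 0.47 (SE 0.159, adjusted p 0.0412). Tap2, a subunit of the peptide pump, had 31.8, 34.1, 34.0 and 36.6 CPM in KO_sham and 38.6, 36.9, 56.7 and 41.6 CPM in KO_TAC, all above KO_sham, with a log2 fold change of 0.39 (SE 0.117, adjusted p 0.0272). Tap1, its partner, had 29.8, 11.4, 36.9 and 40.5 CPM in KO_TAC against 15.7 to 20.2 CPM in KO_sham. KO_TAC 2 was thus the lowest of all 8 libraries while the other 3 were above every KO_sham library, and Tap1 missed the threshold (log2 fold change 0.72, SE 0.284, adjusted p 0.0711). Tapbp, which holds empty class I molecules for loading, had means of 87.5 ± 21.8 and 73.8 ± 1.97 CPM and was not called either (0.28, SE 0.140, adjusted p 0.146).

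The non-classical class I genes gave the largest changes. H2-Q6, of the Qa-2 group, had 31.6, 46.9, 36.9 and 25.3 CPM in KO_sham and 53.3, 54.9, 112.4 and 109.5 CPM in KO_TAC, without overlap, and its log2 fold change was 1.26 (SE 0.367, adjusted p 0.0228). H2-K2, annotated as a transcribed pseudogene next to H2-K1, had 5.83, 13.8, 6.52 and 6.47 CPM in KO_sham and 9.98, 19.1, 33.8 and 28.0 CPM in KO_TAC. Its log2 fold change was 1.51 (SE 0.371, adjusted p 0.0111), and the overlap came from the library labelled KO_sham 2, which exceeded KO_TAC 1. H2-Q4, H2-Q5 and H2-Q7 were called higher as well, with log2 fold changes of 0.81 (SE 0.260, adjusted p 0.0339), 1.28 (SE 0.436, adjusted p 0.0426) and 1.05 (SE 0.323, adjusted p 0.0288). In all 3, the library labelled KO_sham 2 was the highest of its group and above the lowest KO_TAC library. These genes resemble each other: 10.8% of the 100-base windows of H2-Q6, 12.0% of H2-Q7, 14.0% of H2-Q5 and 2.16% of H2-Q4 recur in another gene, and how the counting treated such reads is not given in the sources used here.

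H2-T24 was the 1 member called lower. It had 8.15, 7.60, 9.33 and 7.29 CPM in KO_sham and 4.24, 4.59, 3.88 and 5.33 CPM in KO_TAC, with all KO_TAC libraries below (log2 fold change -0.80, SE 0.284, adjusted p 0.0485). The call was lost in all 8 fits that each left out 1 library (adjusted p 0.0540 to 0.126) and in 4 of 7 other fits, while the fold change stayed below 0 in all of them. H2-T22, H2-T23 (Qa-1, a ligand of NK cell receptors) and H2-M3 (which presents formylated peptides) were not called: their means in KO_TAC and KO_sham were 28.3 and 27.3, 49.0 and 39.9, and 7.34 and 7.42 CPM. The transactivator Nlrc5 was not called. It had 7.77, 8.77, 6.31 and 6.75 CPM in KO_sham and 8.53, 4.02, 6.63 and 9.08 CPM in KO_TAC (log2 fold change -0.03, SE 0.285, adjusted p 0.943).

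**Figure D3:**
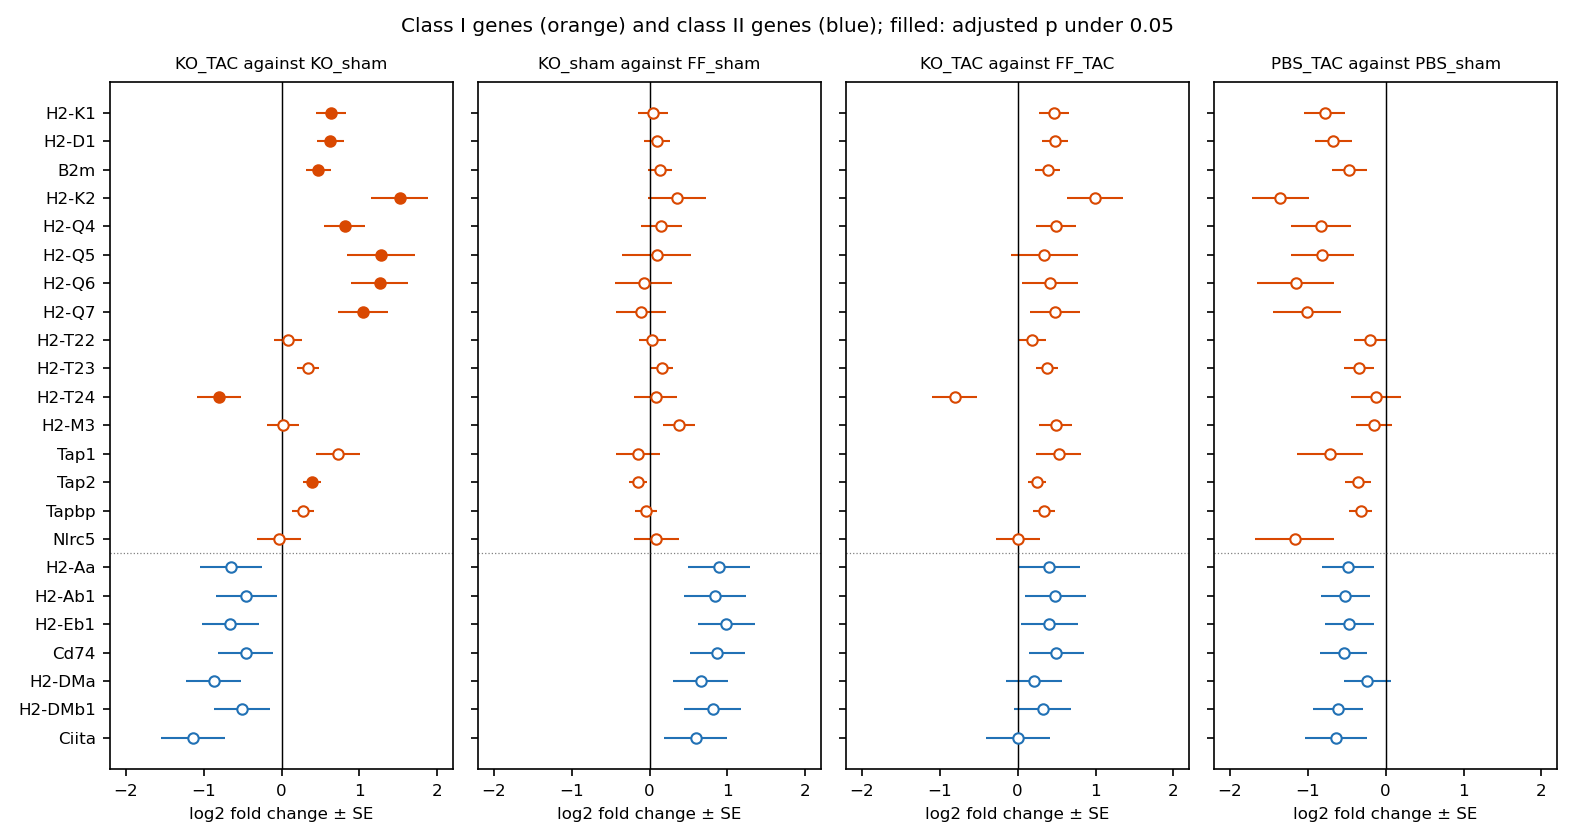
Log2 fold changes with their standard errors for 23 members in 4 comparisons; orange points are class I genes with Nlrc5, blue points class II genes with Ciita, and filled points passed an adjusted p of 0.05. Filled points occur in the first comparison alone, KO_TAC against KO_sham, where H2-K2 lies highest at 1.51 and H2-T24 is the one filled point below 0; the blue points lie right of 0 in KO_sham against FF_sham.

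Many but not all of the called class I genes followed the haemoglobin split, and the number of calls changed when single libraries were left out. Within KO_sham, the library labelled KO_sham 2, the one with low haemoglobin, was the highest in 9 of the 17 class I and loading genes, the lowest in 1 of them and the lowest in all 8 class II genes. Within FF_TAC both low-haemoglobin libraries were above both others in 9 of the 17 and below both in 4 (H2-T24, H2-T22, H2-T10 and H2-M6-ps). The called Tap2 was in neither set, with 39.4 and 34.1 CPM in FF_TAC 2 and 3 against 38.7 and 37.2 CPM in FF_TAC 1 and 4. In the library labelled KO_sham 2, B2m (246.6 CPM) and Tap2 (34.1 CPM) were not the highest of the group and H2-T24 (7.60 CPM) was not the lowest. With a term for low haemoglobin in the model, 0 of the 28 members were called by edgeR between KO_TAC and KO_sham (2 had an unadjusted p under 0.05, and 1.75% of all genes were called). The log2 fold change of H2-K1 was then 0.29, of H2-D1 0.30, of H2-Q6 0.55 and of H2-K2 0.80 (adjusted p 0.445, 0.357, 0.434 and 0.212). With the term Tap2 had 0.39 (adjusted p 0.194), Tap1 0.53 and H2-T23 0.38, against 0.39, 0.72 and 0.33 without it, so the call of Tap2 was lost at a fold change of the same size. KO_TAC lies wholly on the low side, and the part of the haemoglobin state in these calls was not tested beyond that term. Without KO_sham 3 or without KO_TAC 3, H2-K2 was the 1 member still called, without KO_sham 1 or KO_sham 4 there were 2, without KO_TAC 4 there were 6, and the other 3 fits that each left out 1 library gave 9 to 12. The share of all genes called in each of these fits is not given here. Whether the members lost more calls than other genes can therefore not be told from these counts. Without the 3 libraries that Cpt1a contradicts, an alternative added after seeing the data, 11 members were called, 8 of them among the 10, where 23.4% of all genes were.

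Cell type markers also differed between KO_TAC and KO_sham, where 14.3% of all genes were called higher and 11.5% lower. Of 6 endothelial markers 4 fell, and their sum was 479 to 686.9 CPM in KO_TAC against 680.5 to 896.3 CPM in KO_sham. Of 5 heart muscle markers 3 fell, and of 4 fibroblast markers 2 rose (Col1a1 and Dcn), their sum being 1176 to 1402 CPM against 637.1 to 867.5 CPM. None of the 4 leukocyte markers was called and 1 of 11 macrophage markers was, Ccr2, which fell (1.27 against 9.85 CPM). Of 7 tested dendritic cell markers Zbtb46 rose and Clec9a fell, and of 4 tested B cell markers Ighm rose. Ighm had 887, 19.2, 1.35 and 2.48 CPM in KO_TAC and 17.9, 4.54, 13.4 and 12.25 CPM in KO_sham. Its rise thus rested mainly on KO_TAC 1, and KO_TAC 3 and KO_TAC 4 lay below every KO_sham library. The part of these markers in the class I values was not tested, and in bulk tissue fewer cells of a type and less RNA per cell cannot be told apart.

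No class II gene was called between KO_TAC and KO_sham, and most had a lower mean in KO_TAC. H2-Aa (ENSMUSG00000036594, chr17:34282744-34287823), the alpha chain, had 127.7, 51.4, 83.7 and 77.5 CPM in KO_sham and 91.4, 30.9, 50.5 and 39.2 CPM in KO_TAC. The groups overlapped, and the log2 fold change was -0.65 (SE 0.396, adjusted p 0.231). Cd74, the invariant chain, had 278.1, 129.0, 199.9 and 199.1 CPM in KO_sham and 214.8, 93.6, 160.0 and 102.3 CPM in KO_TAC (-0.46, SE 0.354, adjusted p 0.339). In both genes KO_TAC 1 was the highest KO_TAC library, and the library labelled KO_sham 2 was the lowest KO_sham library. Over the 8 tested class II genes the median log2 fold change was -0.49, 2 were higher and 6 lower, and none was called. In alternative fits H2-DMa was called lower with all 30 libraries, without the 3 libraries that Cpt1a contradicts, without KO_sham 2 and without KO_TAC 1. Without KO_TAC 1, H2-Aa was called lower as well (-1.05, adjusted p 0.0445).

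The class II transactivator Ciita had 4.83, 2.21, 3.99 and 5.23 CPM in KO_sham and 3.44, 0.502, 1.74 and 1.45 CPM in KO_TAC. Its log2 fold change of -1.13 (SE 0.414, adjusted p 0.0548) just missed the threshold, as did that of the peptide editor H2-DMa (-0.87, SE 0.355, adjusted p 0.0806). Ciita shares exon sequence with Dexi, and H2-DMa with Brd2, on the opposite strand, and whether the counting used strand is not given in the sources used here. Ciita was called lower by DESeq2, in the fit of all 30 libraries, without KO_sham 2 or KO_TAC 1, and without the 3 libraries that Cpt1a contradicts. The summed CPM of H2-Aa, H2-Ab1, H2-Eb1 and Cd74 relative to that of H2-K1, H2-D1 and B2m was 0.552 ± 0.183 in KO_sham and 0.256 ± 0.120 in KO_TAC (SD, n = 4 each). In the other 6 groups the mean ratio lay between 0.244 and 0.363.

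**Figure D4:**
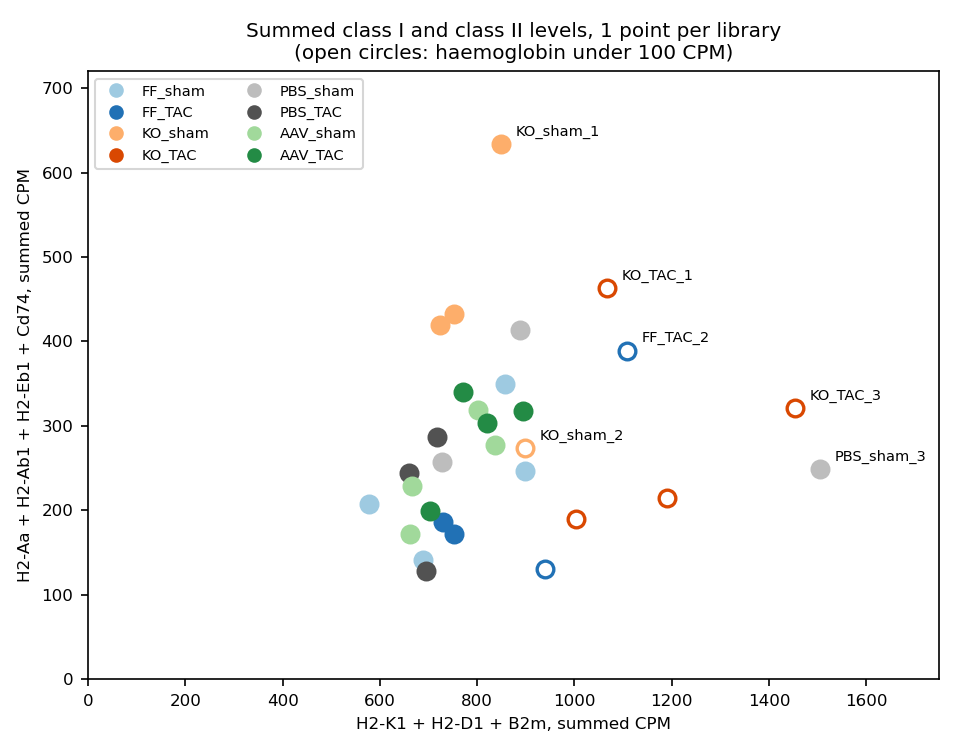
Summed CPM of H2-Aa, H2-Ab1, H2-Eb1 and Cd74 (vertical axis) against summed CPM of H2-K1, H2-D1 and B2m (horizontal axis), 1 circle per library, coloured by group and open where haemoglobin transcripts were under 100 CPM. PBS_sham 3 lies farthest right at 1505 CPM and KO_sham 1 highest at 634 CPM; the KO_TAC libraries span 1003 to 1453 CPM on the class I axis.

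Without overload, the knockout hearts held more class II RNA on average than the floxed controls, without passing the test. In KO_sham against FF_sham all 8 tested class II genes had a higher mean in KO_sham, with a median log2 fold change of 0.82, while the median over the 17 class I and loading genes was 0.04. None of the 28 members was called by edgeR (0% of all genes were) and none by DESeq2. At an unadjusted p under 0.05 there were 5 members, all class II, where 5.22% of all genes reached that level. They were H2-Eb1, Cd74, H2-Aa, H2-DMb1 and H2-Ab1, with adjusted p-values of 0.90 to 0.95.

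H2-Eb1 (ENSMUSG00000060586, chr17:34305867-34316674), a beta chain, had 26.3, 62.0, 45.4 and 35.6 CPM in FF_sham and 126.3, 50.6, 81.5 and 78.2 CPM in KO_sham, a log2 fold change of 0.99 (SE 0.366). Of the KO_sham libraries the one labelled KO_sham 2 lay inside the FF_sham range, and the other 3 lay above it. H2-Aa had 24.4, 71.5, 48.2 and 38.3 CPM in FF_sham (0.89, SE 0.398), and Cd74 had 68.4, 157.4, 111.8 and 101.7 CPM (0.87, SE 0.356). The same held for both: the library labelled KO_sham 2 lay within the FF_sham range and the other 3 above it. Without the 3 libraries whose Cpt1a level contradicts their label, an alternative added after seeing the data, the class II median was 0.97 and H2-Eb1 had 1.16 (SE 0.314, adjusted p 0.643), still with 0 members called and 7 at an unadjusted p under 0.05.

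Markers of the cells that carry class II molecules had higher means in KO_sham as well. All 4 leukocyte and all 11 macrophage markers had a higher mean than in FF_sham (median log2 fold changes 0.85 and 0.73), with 4 and 8 of them at an unadjusted p under 0.05 and none called. Summed macrophage markers ran from 271.2 to 485.8 CPM in KO_sham and from 196.9 to 274.1 CPM in FF_sham. The dendritic and macrophage gene Itgax had 5.35, 1.17, 4.21 and 3.56 CPM in KO_sham and 0.6254, 3.36, 0.928 and 0.694 CPM in FF_sham, and as with the class II genes the library labelled KO_sham 2 was the lowest of its group. The part of leukocyte content in the class II values was not tested.

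After overload, knockout hearts were compared with floxed hearts. In KO_TAC against FF_TAC none of the 28 members was called by edgeR, although 14.3% of all genes were, and 25 members had a higher mean in KO_TAC with a median log2 fold change of 0.40. At an unadjusted p under 0.05 there were 10 members, 8 higher and 2 lower, where 31.1% of all genes reached it. H2-T24 came nearest to a call, with 9.86, 5.82, 3.996 and 12.7 CPM in FF_TAC against 3.88 to 5.33 CPM in KO_TAC (log2 fold change -0.81, SE 0.284, adjusted p 0.0686). The low FF_TAC values are those of the libraries labelled FF_TAC 2 and 3, which lay at or near the KO_TAC range. DESeq2 called 3 members, H2-D1, H2-K2 and H2-T24, and the share of all genes that it called is not given here.

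The FF_TAC libraries differed among themselves along the haemoglobin split. H2-K1 had 227.6, 358.7, 314.4 and 233.0 CPM in FF_TAC, so the low-haemoglobin libraries labelled FF_TAC 2 and 3 reached KO_TAC levels and the other 2 stayed near FF_sham. H2-Q6 had 33.9, 87.9, 88.1 and 42.6 CPM and showed the same order. Among low-haemoglobin libraries alone (4 KO_TAC against these 2), no member was called and none had an unadjusted p under 0.05. That fit called 0 of all 15311 genes tested, so the absence of calls is not particular to the members. In it 23 of 27 members were higher in KO_TAC and 4 lower. H2-K1 had a log2 fold change of 0.19, H2-D1 0.22 and H2-Q6 -0.10. Without the 3 libraries that Cpt1a contradicts, in contrast, 7 members were called between KO_TAC and FF_TAC (B2m, H2-D1, H2-K1, H2-K2 and H2-Q4 higher, H2-T24 and H2-M6-ps lower), where 22.45% of all genes were. In that fit KO_TAC and low haemoglobin cannot be told apart.

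Macrophage and leukocyte markers also rose: 4 of 11 macrophage markers (Cd68, C1qa, C1qb and C1qc) and 2 of 4 leukocyte markers (Ptprc and Cd52) were called higher in KO_TAC than in FF_TAC. Of all genes 14.3% were called in this comparison, in either direction. The macrophage markers summed to 321.5 to 384.6 CPM in KO_TAC and 233.3 to 250.2 CPM in FF_TAC. The class II genes stood at a median log2 fold change of 0.45 in this comparison, with 8 of 8 higher and none called. Again 4 of 6 endothelial markers fell, as did 2 of 5 heart muscle markers and 1 of 7 dendritic cell markers, while 2 of 4 fibroblast, 1 of 4 B cell and 1 of 2 neutrophil markers rose. Summed B cell markers were 910.1 CPM in KO_TAC 1, 2.305 to 22.2 CPM in the other KO_TAC libraries and 4.12 to 11.8 CPM in FF_TAC. The part of these markers in the MHC values was not tested.

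Overload by itself gave no call in the floxed controls. In FF_TAC against FF_sham none of 28 members was called by edgeR (0% of all genes were) and none by DESeq2, 14 members were higher and 14 lower, and the median log2 fold change was 0.00. At an unadjusted p under 0.05 were H2-Q5 (1.03, SE 0.437) and H2-K2 (0.87, SE 0.374), where 11.1% of all genes reached that level. H2-K1 had 222.0, 281.0, 302.2 and 175.5 CPM in FF_sham, and its log2 fold change of 0.21 (SE 0.193, adjusted p 0.674) turned to -0.10 among high-haemoglobin libraries alone.

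The difference between the overload effects in knockout and floxed hearts, the interaction of knockout and TAC, called none of 28 members by edgeR (0.0449% of all genes were called) and none by DESeq2. At an unadjusted p under 0.05 were Tap2 (0.40, SE 0.166) and H2-T24 (-0.89, SE 0.397), where 13.1% of all genes reached it. The medians of the classes had opposite signs, 0.38 over 17 class I and loading genes and -0.41 over 8 class II genes. Without the 3 libraries that Cpt1a contradicts, H2-T24 was the 1 member of 29 called (-1.39, SE 0.299, adjusted p 0.0202), where 5.055% of all genes were.

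Genes that supply and process the peptides changed in both directions between KO_TAC and KO_sham, a comparison in which 14.3% of all genes were called higher and 11.5% lower. Of 11 genes of class I peptide supply, 3 rose, namely the immunoproteasome subunit Psmb10 (log2 fold change 0.90, SE 0.296) and the chaperones Calr (0.49, SE 0.122) and Pdia3 (0.31, SE 0.101). Another 3 fell, which were the peptide trimming enzyme Erap1 (-0.45, SE 0.148), the proteasome activator Psme1 (-0.38, SE 0.130) and Lnpep (-0.26, SE 0.091). Psmb8 and Psmb9, the immunoproteasome subunits encoded beside Tap1, were not called. Of 8 genes of class II processing, 3 rose (the chaperone Hspa8 by 0.97 and the lysosomal proteases Ctsd by 0.88 and Ctsl by 0.69), and March1, a ubiquitin ligase that removes class II molecules from the surface, fell, to a mean of 0.755 CPM in KO_TAC (-1.41, SE 0.467). Hspa8 followed the haemoglobin split, with 1730 and 1889 CPM in FF_TAC 2 and 3 against 1139 and 1247 CPM in FF_TAC 1 and 4. It had 1639 CPM in KO_sham 2 against 993.8 to 1149 CPM in the other KO_sham libraries. Ctsl, Ctsd and Psmb10 were also higher in FF_TAC 2 and 3 than in FF_TAC 1 and 4. Within KO_sham, however, KO_sham 2 was the lowest for Ctsd and Psmb10. KO_TAC 1 lay within the KO_sham range for both, at 584.3 and 37.3 CPM.

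Among 13 genes that control MHC transcription, 6 rose in KO_TAC over KO_sham and none fell, where 14.3% of all genes were called higher. The largest was Irf1, an interferon-induced factor that acts on class I promoters. It had 31.4, 110.5, 25.7 and 28.4 CPM in KO_sham and 180.2, 317.5, 407.2 and 313.7 CPM in KO_TAC (log2 fold change 2.67, SE 0.669, adjusted p 0.0123). The NF-kappaB subunits Rela (1.74, SE 0.409) and Nfkb1 (1.19, SE 0.251), and Rfxank (0.86, SE 0.162), a subunit of the X box complex, rose too. NF-kappaB binds kappaB sites, and its binding to the letters printed above for H2-K1 and H2-D1 was not tested. Irf1 followed the haemoglobin split: it was 253.9 and 253.3 CPM in the libraries labelled FF_TAC 2 and 3, and at most 60.7 CPM in every library outside the 7, the 60.7 CPM being that of PBS_sham 3. Rela was 141 and 174.4 CPM in FF_TAC 2 and 3 against 40.9 and 41.4 CPM in the other FF_TAC libraries. Nfkb1 was 72.6 and 103.8 against 48.4 and 50.5 CPM, so both followed the split within FF_TAC. Rfxank, at 13.7 and 12.1 against 14.5 and 11.2 CPM, did not.

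Of 18 tested genes of the interferon gamma pathway 7 rose between KO_TAC and KO_sham, where 14.3% of all genes did. Cxcl10, a chemokine for T cells, had 1.71, 11.3, 0.647 and 1.24 CPM in KO_sham and 25.1, 35.1, 128.2 and 163.7 CPM in KO_TAC (log2 fold change 4.61, SE 1.07, adjusted p 0.00868). In FF_TAC it was 15.4 and 20.8 CPM in the low-haemoglobin libraries labelled FF_TAC 2 and 3 and 0.507 and 1.25 CPM in the others. Socs1 (1.58, SE 0.427), Gbp5 (1.49, SE 0.448), Jak2 (1.25, SE 0.282), Gbp2 (1.15, SE 0.326) and Ifngr1 (0.71, SE 0.173) rose besides Irf1. Ifng itself did not exceed 0.284 CPM in any library. Of 5 tested co-stimulation genes 4 rose, Cd40 (3.18, SE 0.671), Icosl (1.92, SE 0.509), Cd80 (1.67, SE 0.364) and Cd86 (1.18, SE 0.262). Cd40 and Icosl also followed the haemoglobin split: Cd40 was 16.7 and 22.3 CPM in the libraries labelled FF_TAC 2 and 3 against 2.42 and 3.63 CPM in the other FF_TAC libraries. Icosl was 27.2 CPM in the library labelled KO_sham 2 against 8.95 to 11.4 CPM in the other KO_sham libraries. Cd80 and Cd86 were also higher in FF_TAC 2 and 3 than in the other FF_TAC libraries. Cd80 had 2.268 and 2.435 against 0.902 and 0.8515 CPM, and Cd86 6.865 and 4.93 against 3.1 and 3.58 CPM.

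The same lists between KO_TAC and FF_TAC, which share the KO_TAC libraries with the comparison above, gave fewer calls. So did all genes, of which 14.3% were called here against 25.8% between KO_TAC and KO_sham. Of class I peptide supply Calr (0.43, SE 0.122) and Pdia3 (0.46, SE 0.101) rose. Of class II processing Ctss (1.10, SE 0.295), the protease that cuts the invariant chain, Ifi30 (1.05, SE 0.197), Hspa8 (0.64, SE 0.191) and Ctsb (0.43, SE 0.113) rose. Rfxank (0.91, SE 0.162), Cxcl10 (3.24, SE 0.990), Socs1 (1.96, SE 0.437), Gbp5 (1.46, SE 0.448), Irgm1 (0.96, SE 0.301), Cd80 (1.26, SE 0.359) and Cd86 (0.99, SE 0.261) rose as well. No gene of the 5 lists was called by edgeR in any other comparison.

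In the AAV9 cohort the class I values leaned on 1 library. H2-K1 had 230.9, 289.8 and 509.6 CPM in PBS_sham and 195.4, 225.0 and 203.6 CPM in PBS_TAC; it was lower in every PBS_TAC library, and PBS_sham 3 was far above the other PBS_sham libraries. H2-D1 had 280.9, 369.2 and 591.4 CPM in PBS_sham and 256.5, 280.2 and 271.4 CPM in PBS_TAC. The log2 fold changes were -0.78 (SE 0.265, adjusted p 0.189) and -0.67 (SE 0.237, adjusted p 0.192). No member of 26 was called by edgeR in PBS_TAC against PBS_sham (0.0318% of all genes were), DESeq2 called H2-K2, and 9 members had an unadjusted p under 0.05 where 18.5% of all genes did.

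All 26 tested members had a lower mean in PBS_TAC, with a median log2 fold change of -0.57. Without PBS_sham 3 the median was -0.14, that of class I genes -0.02 and that of class II genes -0.62, and 3 of 27 members had an unadjusted p under 0.05 (14.37% of all genes). H2-K1 was then at -0.32 (SE 0.163, adjusted p 0.402). Nlrc5 had 6.13, 5.08 and 25.3 CPM in PBS_sham and Tap1 12.8, 12.3 and 42.5 CPM. In PBS_sham 3, Psmb8 (40.3 CPM) and the summed endothelial markers (1195 CPM) were also the highest of all 30 libraries, and the part of its tissue composition in these values was not tested.

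No member was called between hearts given the vector and hearts given PBS. In AAV_sham against PBS_sham none of 26 members was called by edgeR or DESeq2 (0.0127% of all genes by edgeR), 7 had an unadjusted p under 0.05 (20.7% of all genes), and all 26 were lower with a median of -0.40. Without PBS_sham 3 that median was -0.16, with 0.03 for class I genes and -0.42 for class II genes, which had -0.34 with it. In that fit 5 of 27 members had an unadjusted p under 0.05 (11.7% of all genes). H2-K1 had 198.0, 268.0, 203.5 and 263.3 CPM in AAV_sham, within the range that PBS_sham 1 and 2 and PBS_TAC span together.

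Under overload, AAV_TAC against PBS_TAC called none of 26 members by edgeR or DESeq2 (0.0381% of all genes by edgeR) and had none at an unadjusted p under 0.05 (3.19% of all genes). All 26 means were higher in AAV_TAC, with a median log2 fold change of 0.31 and the highest for Nlrc5 at 0.74 (SE 0.483). Nlrc5 had 6.44, 8.11, 12.8 and 11.1 CPM in AAV_TAC and 6.12, 5.74 and 5.45 CPM in PBS_TAC, without overlap. B2m likewise had 227.0, 250.7, 247.8 and 271.5 CPM in AAV_TAC, all above the 207.2 to 219.8 CPM of PBS_TAC (0.23, SE 0.213). Of the 26 members 5 lay wholly above PBS_TAC in this way and none wholly below, and the share of all genes that did is not given here.

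AAV_TAC against AAV_sham called no member by edgeR or DESeq2 (0.00635% of all genes by edgeR). H2-T24 was the 1 member with an unadjusted p under 0.05, where 7.05% of all genes had one. It had 6.81, 6.64, 6.24 and 7.10 CPM in AAV_sham and 10.1, 8.96, 10.9 and 11.8 CPM in AAV_TAC, without overlap (log2 fold change 0.64, SE 0.277, adjusted p 0.663). Of 26 members 24 were higher in AAV_TAC, with a median of 0.22.

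The interaction of vector and TAC called no member by edgeR or DESeq2 (0.00635% of all genes by edgeR), and 8 members had an unadjusted p under 0.05 where 6.95% of all genes did. These 8 are class I or loading genes and Nlrc5: Nlrc5 (1.57, SE 0.670), Tap1 (1.29, SE 0.563), H2-K2 (1.22, SE 0.484), H2-K1 (0.87, SE 0.349), H2-D1 (0.72, SE 0.312), H2-T23 (0.61, SE 0.258), Tap2 (0.58, SE 0.225) and Tapbp (0.42, SE 0.194), all with an adjusted p of 0.688. The median over 26 members was 0.77, and it was 0.36 without PBS_sham 3, whose values enter this difference through the PBS_sham mean. The class I median was 0.74 with and 0.23 without that library, and the class II median 0.78 and 0.82, and without it 2 of 27 members had an unadjusted p under 0.05 (7.13% of all genes).

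Between the sham controls of the 2 cohorts, FF_sham against PBS_sham, no member of 29 was called by edgeR or DESeq2, while edgeR called 4.28% of all genes. There were 6 members at an unadjusted p under 0.05 (26.3% of all genes), namely H2-D1, H2-K2, H2-T23, H2-K1, H2-Q4 and Nlrc5, all lower in FF_sham. Over the 29 members 28 were lower, with a median log2 fold change of -0.41, and without PBS_sham 3 the median was -0.05 over 31 tested members, with 0.145 for class I and -0.51 for class II genes, and 1 member had an unadjusted p under 0.05 (8.71% of all genes). The exception was the pseudogene H2-M6-ps (1.06), named here after its values were seen. Genotype, PBS injection, any strain haplotype and the library batch cannot be told apart in this comparison.

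Scarce class II genes were highest in 2 libraries. The editor chain H2-DMb2 had 3.44 CPM in KO_TAC 1 and 2.51 CPM in PBS_sham 2 and at most 1.24 CPM in every other library. H2-Ob, of the H2-DO editor of B cells, was highest in the same 2 libraries with 3.44 and 4.70 CPM, against at most 1.89 CPM elsewhere. Summed B cell markers were 910.1 CPM in KO_TAC 1, of which Ighm gave 887.0, and 115.2 CPM in PBS_sham 2, against at most 22.2 CPM in every other library. KO_TAC 1 also held the most atrial Myl7 (3188 CPM). KO_TAC 1 was moreover the highest KO_TAC library for H2-Aa, H2-Ab1, H2-Eb1 and Cd74, and the part of its B cell content there was not tested.

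Within groups, many members of a class varied together from heart to heart. Group means were subtracted from log2 CPM (prior count 2) and Pearson's r was taken over the 30 libraries, which share depth and tissue composition as sources of variation. Among 16582 other genes, the 5 most like H2-K1 were H2-D1 (0.98), H2-Q7 (0.96), H2-Q4 (0.93), H2-Q6 (0.92) and B2m (0.89), all of them members. Those most like H2-Aa were H2-Eb1 (0.98), H2-Ab1 (0.98), Cd74 (0.97), H2-DMa (0.91) and H2-DMb1 (0.86). For Cd74 they were H2-Ab1 (0.99), H2-Eb1 (0.98), H2-Aa (0.97), H2-DMb1 (0.89) and H2-DMa (0.88).

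Over the class I, loading and class II members tested with all 30 libraries, the median r was 0.58 (from -0.37 to 0.98) over 153 pairs of class I and loading genes, 0.82 (from 0.48 to 0.99) over 28 pairs of class II genes and 0.17 over the 144 pairs across the classes. The transactivator Nlrc5 had a median r of 0.66 with 18 class I and loading genes and 0.14 with 8 class II genes. Ciita had a median r of 0.745 with the class II genes and 0.30 with the class I and loading genes. H2-T24, the class I gene that was lower in KO_TAC, had a median r of 0.19 with the other 17 class I and loading genes, from -0.14 to 0.46 (the latter with H2-M3), and 0.495 with Nlrc5. These r values describe 30 libraries that include PBS_sham 3 and the haemoglobin split within groups, and they carry no test.

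**Figure D5:**
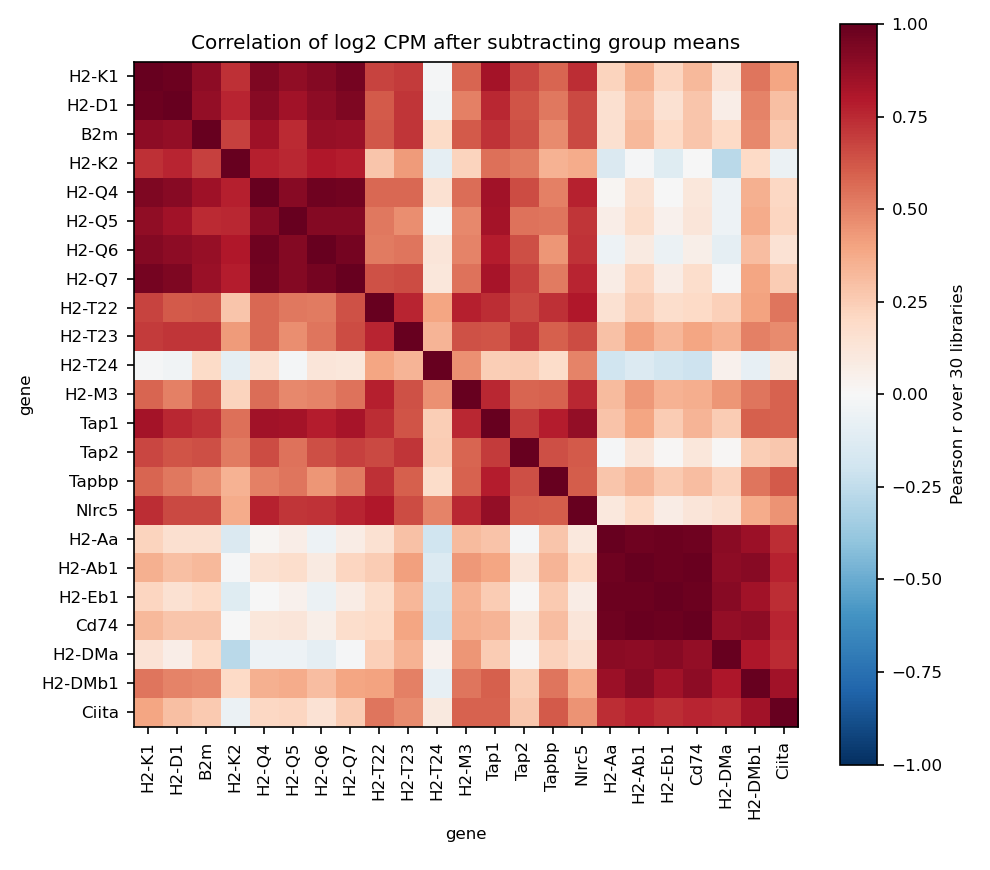
Pearson r between 23 members over 30 libraries after subtracting group means from log2 CPM; each cell is 1 pair of genes and the colour scale runs from -1 to 1. Most class I genes with the loading genes and Nlrc5 form 1 block, and the class II genes with Ciita form another; H2-Aa and H2-Eb1 have an r of 0.98, and H2-T24 and H2-K1 one of -0.01.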

How the data were processed

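The authors deposited a table of raw counts per gene, with 1 column for each of the 30 hearts, from poly(A)-selected, stranded libraries read paired-end at 100 bases, per the labels' protocols. HISAT2 2.1.0, Subread 1.5.1, featureCounts and build GRCm38 are named in the submitters' processing notes, and the strand setting, the treatment of reads that match several genes and the annotation release are not given in the sources used here. Groups follow the genotype and treatment labels, since the titles of the KO_TAC samples read TAC and sham together while their column names give knockout and TAC.

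Of the 55487 gene identifiers, 55227 had a symbol in GENCODE M21, and the rest held 0.00336% of the counts. The members and lists were chosen with earlier results of these data known. Separate fits for each cohort, holding a mean for every group, used edgeR 4.0.16 (quasi-likelihood, TMM, filterByExpr; R 4.3.3) and tested 15596 genes in the floxed and 15745 in the AAV9 cohort, and FF_sham against PBS_sham in a fit of all 30 libraries (16583 genes). Benjamini-Hochberg adjusted p-values under 0.05 over all genes were called. CPM were scaled by TMM over all 30 libraries, and levels per length use merged exon length. Named members are the classical chains and their partners, every member called in any comparison and every member whose mean reached 5 CPM in some group. The alternatives were size factors of the DESeq2 kind, no filter, DESeq2 1.42.0, a replicate block, all 30 libraries or only the compared groups in the fit, a haemoglobin term or split at 100 CPM, a covariate of atrial Myl7, leaving out each library, and, added after seeing the data, dropping the 3 libraries that Cpt1a contradicts. The fit was tested on simulated counts. Gene counts of the 42 pairs of libraries within groups differed by 6.29 to 234 in chi-square per degree of freedom, so none was deposited in duplicate. MicroRNA work was not analysed here.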

Additional observations from a re-analysis of the deposited data

Results flagged for a closer look

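In 8 of 138 sets of a member in a group of 4, 1 library lay far from the other 3, where chance alone gives about 1 in 20 such sets. In AAV_TAC, library 1 was low for H2-Ab1 (32.5 CPM, next 51.7) and for Tap2 (34.7 CPM, next 42.5). The library labelled KO_sham 2 was high for H2-K2 (13.8 CPM, next 6.52) and H2-Q4 (78.9 CPM, next 51.4). FF_TAC 2 was high for H2-DMb1 (6.44 CPM, next 3.18), and FF_TAC 3 low for Ciita (1.19 CPM, next 1.99). KO_TAC 2 was low for H2-M3 (5.16 CPM, next 7.88), and KO_TAC 3 high for H2-T23 (61.6 CPM, next 45.9).

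Every library after TAC lay above sham in the knockout hearts and below sham in the PBS hearts for H2-K1 (log2 fold changes 0.64 and -0.78) and H2-D1 (0.63 and -0.67). The nearest PBS_TAC and PBS_sham libraries had 225 and 230.9 CPM of H2-K1 and 280.2 and 280.9 CPM of H2-D1. Without PBS_sham 3 the PBS fold changes were -0.32 and -0.27, and neither gene was called in the PBS hearts. With the haemoglobin term neither was called in the knockout hearts. H2-T24 was lower in every KO_TAC library than in KO_sham (-0.80) and higher in every AAV_TAC library than in AAV_sham (0.64). These differences between cohorts were not tested.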

How the results depend on the processing

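Between KO_TAC and KO_sham, 10 members were called; the haemoglobin term left 0, fits that each left out 1 library gave 1 to 12, and the other alternatives gave 7 to 12, the 12 being those of DESeq2, which include all 10. For that comparison, low-haemoglobin libraries alone were not fitted. Between KO_TAC and FF_TAC, 0 became 3 with DESeq2 (H2-D1, H2-K2 and H2-T24), 2 with the replicate block (H2-D1 and H2-K2), 7 without the 3 libraries that Cpt1a contradicts, and 0 to 4 without single libraries (4 without FF_TAC 2). Of all genes, 14.3% were called in the main fit of this comparison and 22.45% without those 3 libraries. The interaction of knockout and TAC went from 0 to 1 without those 3 libraries, where 5.055% of all genes were called. PBS_TAC against PBS_sham gave 1 with DESeq2 (H2-K2) and 0 to 5 without single libraries, AAV_sham against PBS_sham 0 to 8 and FF_sham against PBS_sham 0 to 10, with the highest count in each without PBS_sham 1; without PBS_sham 2, Nlrc5 was called in the last. The other comparisons gave 0 in every fit. For DESeq2, the replicate block and the fits without single libraries, the share of all genes called is not given here. Their counts can therefore not be set against that share. The cause of these moves was not tested.

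Among named results the sign of a log2 fold change turned in the cases below, and no value was called with the turned sign. H2-K1 had -0.047 with the haemoglobin term, -0.095 in high-haemoglobin libraries and -0.099 without the 3 libraries in FF_TAC against FF_sham, and -0.081, -0.043 and -0.053 in the same settings in KO_sham against FF_sham. The remaining reversals came from leaving out single libraries, and each range below is over all such fits of that comparison. In FF_TAC against FF_sham, H2-Aa ran from -0.544 to 0.133 (above 0 without FF_sham 2 or FF_TAC 3) and Cd74 from -0.533 to 0.123 (above 0 without FF_sham 2, FF_TAC 3 or FF_TAC 4). H2-K1 ran from -0.095 to 0.155 in KO_sham against FF_sham (below 0 without FF_sham 1, FF_sham 4 or KO_sham 2), and Cd74 from -0.638 to 0.061 in the interaction of knockout and TAC (above 0 without FF_TAC 2). H2-Aa ran from -0.009 to 0.306 in AAV_TAC against AAV_sham (below 0 without AAV_sham 3) and from -0.370 to 0.078 in AAV_sham against PBS_sham (above 0 without PBS_sham 2). Values above 0 without PBS_sham 3 gave ranges in PBS_TAC against PBS_sham of -1.512 to 0.088 for H2-Q6, -1.532 to 0.048 for Nlrc5 and -1.124 to 0.055 for H2-Q4, and in FF_sham against PBS_sham of -1.068 to 0.147 for H2-Q4 and -1.271 to 0.323 for Nlrc5; at the lower end H2-Q6 in the first and both genes in the second were called, without PBS_sham 1. Over all tested members, leaving out PBS_sham 3 turned the sign of 8 in PBS_TAC against PBS_sham, 10 in AAV_sham against PBS_sham (among them H2-Q5 at 0.64, H2-Q6 at 0.52 and H2-Q7 at 0.44), 13 in FF_sham against PBS_sham and 1 in the interaction of vector and TAC, none of them called.

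Same-numbered libraries of different groups did not deviate together (median correlation 0.006 over 24 pairs, 9 of them over 0.1, in the floxed cohort and 0.061 over 19 pairs, 7 of them over 0.1, in the AAV9 cohort), so the replicate block, which gave 10 calls between KO_TAC and KO_sham (9 of the original 10, without H2-T24 and with H2-M6-ps), tests a number, not a pairing. Size factors of the DESeq2 kind moved the median of all genes by at most 0.022. Members with few counts, such as H2-DMb2 and H2-M6-ps, are limited by depth.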

Other observations

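H2-Q10, a class I gene known mainly from liver, had 2.18 CPM in FF_sham 2, 1.80 in PBS_sham 2 and 1.41 in PBS_sham 3, and at most 0.562 CPM in the other 27 libraries. H2-M2 reached 1.20 CPM in KO_TAC 1 and 0.711 CPM in KO_sham 1, and at most 0.377 CPM elsewhere. H2-Eb2, a second class II beta gene, reached 1.35 CPM in KO_TAC 1 and no more than 0.219 CPM in any other library.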
